A study of Sus scrofa with 56 samples.

Results

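The genes described here encode the proteins of the cytosolic ribosome, measured by RNA sequencing in peripheral blood mononuclear cells of sows. The members were chosen by name: every gene whose pig symbol is RPL or RPS followed by a number, with an optional letter A, X, Y or L, together with RPSA, RPLP0, RPLP1 and RPLP2, and without the RPS6K kinases. This gave 49 members of the 24358 genes listed, 24 of the large and 25 of the small subunit. The rule fits 55 symbols of the gene name table, and RPL13A, RPL22, RPL36, RPS10, RPS14 and RPS26 were not analysed here. RPS6 and RPS19 have no gene ID in that table.

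Blood of multiparous sows was drawn on day 11 of lactation (L11) and day 98 of gestation (G98), which gave 28 libraries of 26 sows at L11 and 28 libraries of 28 sows at G98. Sows lived in enriched or conventional housing and were classed by parity and by rank. High parity (HP) means the fourth or a later gestation, and low parity (LP) the second or the third. Ranks were dominant, intermediate and subordinate. Most dominant sows were HP and most subordinate sows LP. The main rank fits held no parity term, so rank and parity cannot be told apart in their values. The tests set 14 enriched against 14 conventional libraries at each stage, 14 HP against 14 LP at L11, 13 HP against 15 LP at G98, and 11 dominant against 8 subordinate at L11 and 9 against 8 at G98. The study was run in 2 experimental replicates, R2 and R1, with 14 libraries per stage in each, and the stage was compared within the same sow in 12 pairs of R2 and 14 pairs of R1. Of the L11 libraries of R2, 2 come from sows that also gave an L11 library in R1, so they are no additional animals, and these sows are labelled dominant in R2 and intermediate in R1. The stage pairs of R2 and R1 come from different sows. The library codes in the titles form one series for G98 and another for L11, so the stage and whatever these codes mark cannot be told apart.

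A ribosome is built of ribosomal RNA and one copy of most of its proteins. The large subunit (RPL proteins) joins amino acids, and the small subunit (RPS proteins) reads the messenger RNA. Most ribosomal protein messengers begin with a run of pyrimidines, the TOP motif, through which mTOR signalling and the protein LARP1 control their translation, and in blood their level differs between cell types and with activation. In a mixture of blood cells, fewer cells of a type and less RNA per cell cannot be told apart.

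Totals ran from 18096879 to 25302990 estimated counts per library. Of the mononuclear cells named by the labels, T cell, B cell and monocyte markers had a median count above 0 in every group. Red cell genes, which mononuclear cells do not express, took 0.23% ± 0.39 of the counts at L11 and 0.33% ± 0.29 at G98 in R2, and 0.41% ± 0.88 at L11 and 3.15% ± 3.72 at G98 in R1 (SD, n = 14 each). With the 12 red cell genes taken out before scaling, the member counts of the stage comparisons given below were the same. Levels are CPM, counts relative to the library total after TMM scaling, and levels are compared between genes only in the deposited TPM, which is per length.

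Ribosomal protein messengers were among the most abundant of these cells, and a few members were near 0. RPS29 had the highest mean level over the 56 libraries, 11886 TPM, followed by RPL11 with 9640.2 TPM and RPS24 with 8549 TPM, and RPS15A, also among the highest, had 7441 TPM. RPS29, RPS24 and RPS15A belong to the small subunit. RPL11 joins the 5S ribosomal RNA in the large subunit together with RPL5, and free RPL5 and RPL11 bind the p53 inhibitor MDM2. The lowest were RPL10L with 0.0052 TPM, RPL3L with 0.138 TPM, RPS27L with 23.4 TPM, RPL36AL with 416 TPM and RPL3 with 512 TPM. Deposited gene lengths enter these values, and RPL3 and RPS27L have long ones, 5881 and 4564 bases.

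Named as copies of another ribosomal protein gene are 4 members: RPL10L, known from testis, RPL3L, known from heart and skeletal muscle, RPL36AL, and RPS27L, a p53 target whose parent RPS27 is not among the members. RPL10L had at most 1 count in any library and RPL3L at most 9, and neither passed the filter on low counts, so 47 of the 49 members were tested in each comparison. The parents of RPL10L and RPL3L were abundant, with a mean of 4860.5 TPM for RPL10 and 512 TPM for RPL3. RPL36AL reached 416 TPM against 2409 TPM for RPL36A. No source used here states how the authors assigned reads that fit several near-identical genes or ribosomal protein pseudogenes, and the levels are uncertain to that extent.

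Taken as one class, the members held 9.82% ± 1.2 of all counts at L11 and 6.89% ± 0.88 at G98 in R2, and 7.51% ± 0.79 at L11 and 6.72% ± 1.12 at G98 in R1 (SD, n = 14 each). The L11 libraries of R2 ranged from 8.11% to 12.6%, with a median of 9.77%, and overlapped the G98 libraries of R2 at 5.03% to 8.56%, with a median of 6.98%. In R1 the L11 range of 6.29% to 8.75% overlapped the G98 range of 4.4% to 8.48%. The large and the small subunit moved largely together. Within sows, the large subunit had the higher median stage change in 6 of 12 sows of R2 and 13 of 14 of R1. The ratio of large to small subunit counts was 1.13 ± 0.03 at L11 and 1.15 ± 0.03 at G98 in R2, and 1.12 ± 0.01 at L11 and 1.11 ± 0.02 at G98 in R1.

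**Figure D1:**
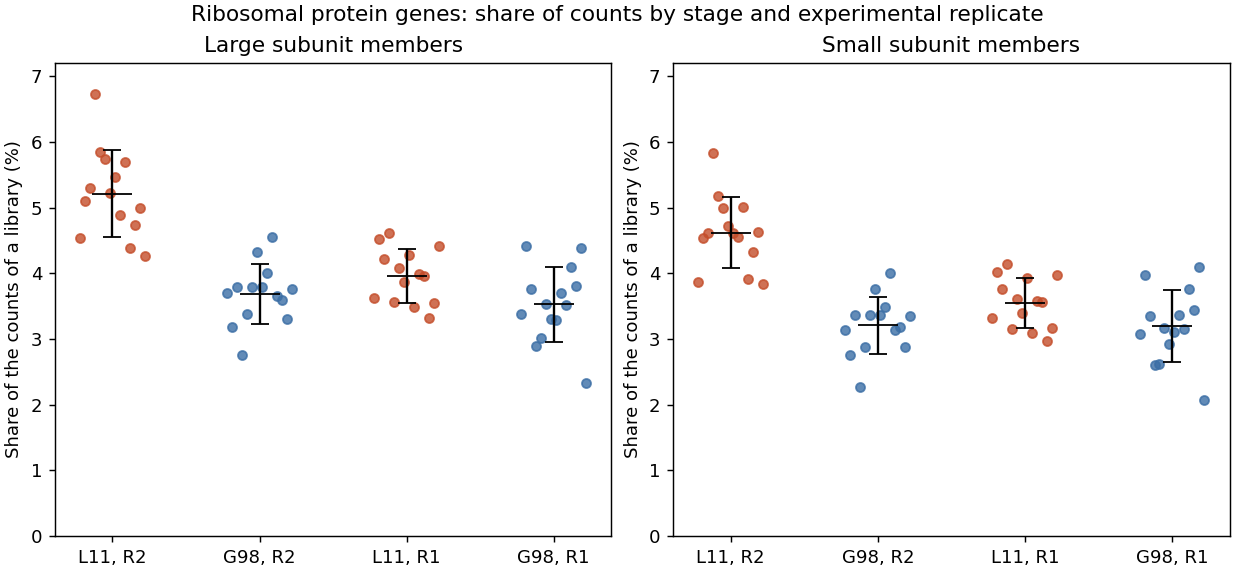
Share of each library's counts held by the large subunit members (left) and the small subunit members (right), in percent, for L11 and G98 libraries of R2 and R1. Points are libraries and bars are mean ± SD (n = 14 each); the L11 libraries of R2 average 5.21% for the large and 4.62% for the small subunit, the highest group means, and their lowest libraries, at 4.27% and 3.84%, overlap every other group.

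Between the stages of R2, nearly every ribosomal protein gene was higher in lactation. In the 12 sows of R2, 44 of the 47 members tested rose at L11 over G98 and 0 fell (edgeR, adjusted p under 0.05), where 24.9% of all genes rose and 23.4% fell, 48.3% in all. The median change over the members was 0.66 on the log2 scale, 0.68 for the 22 large and 0.63 for the 25 small subunit members, and 0.01 for all genes. DESeq2 called 45 higher and 0 lower. The number at an unadjusted p under 0.05 was 45, all of them higher, where 28.2% of all genes were higher at that p. RPL3 and RPL29 were among the 3 members not called, at log2 changes of 0.21 and 0.12.

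In every one of the 12 pairs 29 members were higher at L11, a count for which no share over all genes is given here. Without overlap between the stages were 16 members, where 2.25% of all genes were higher without overlap. The changes among members spread widely, with quartiles of 0.44 and 0.89 and a highest value of 1.41. RPS16, a small subunit protein whose tail reaches the decoding site (gene ENSSSCG00000020817, at chr6:48085684-48088368 in Sscrofa11.1), was at 1759, 2564 and 4599 CPM (lowest, median and highest of 12) at L11, and at 491, 1034 and 1391 CPM at G98. All L11 libraries of this comparison exceeded all G98 libraries, with a log2 change of 1.41 (SE 0.17, edgeR adjusted p = 1.56e-05).

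RPS15A, another small subunit protein (ENSSSCG00000035768, chr3:26776661-26783491), was at 1741, 2456 and 3454 CPM at L11 and at 594, 1074 and 1506 CPM at G98, a log2 change of 1.26 (SE 0.12, edgeR adjusted p = 2.67e-06). RPL23, a large subunit protein that can bind MDM2 (ENSSSCG00000038880, chr12:23279965-23285538), was at 1972, 2399 and 3437 CPM at L11 and at 622, 1047 and 1356 CPM at G98, a log2 change of 1.26 (SE 0.11, edgeR adjusted p = 1.78e-06). For both genes the stages of R2 did not overlap. The small RPS21 rose by 1.09 (SE 0.14) and the large subunit member RPL35 by 1.05 (SE 0.14), with edgeR adjusted p of 3.28e-05 and 3.91e-05.

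RPL11 and RPL5, partners in the 5S particle, differed in size. RPL11 (ENSSSCG00000024260, chr6:81523510-81526925) was at 2563, 3547 and 5820.4 CPM at L11 and at 1151, 1827 and 2420.3 CPM at G98, without overlap, a log2 change of 0.97 (SE 0.14, edgeR adjusted p = 6.87e-05). RPL5 (ENSSSCG00000006899, chr4:124359786-124367612) was at 2383, 3054 and 4350.2 CPM at L11 and at 1345, 2265 and 2824 CPM at G98, with overlap, a log2 change of 0.53 (SE 0.11, edgeR adjusted p = 0.000883). The difference between the changes of these genes was not tested.

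The stalk proteins of the large subunit, which recruit the translation factors, rose by 0.30 to 0.70. RPLP0, the base of the stalk and a common reference gene (ENSSSCG00000036014, chr14:40219196-40223943), was at 2146, 2599 and 4243 CPM at L11 and at 1697, 2264 and 2597 CPM at G98. The stages overlapped, and 9 of 12 pairs were higher at L11, with a log2 change of 0.30 (SE 0.10, edgeR adjusted p = 0.0218). The log2 change of RPLP2 was 0.40 (SE 0.12) and that of RPLP1 0.70 (SE 0.14), both called.

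Among the copies, RPS27L, at 45.3, 52.6 and 99.98 CPM at L11 and at 21.7, 28.0 and 32.8 CPM at G98, did not overlap and changed by 1.04 (SE 0.09, edgeR adjusted p = 1.59e-06). RPL36AL changed by 0.88 (SE 0.11), next to 0.92 (SE 0.10) for RPL36A. RPL10 changed by 0.78 (SE 0.13), and RPL3 by 0.21 (SE 0.09), short of the threshold at an edgeR adjusted p of 0.0739.

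In R1 fewer members were called than in R2, and 32 of the 47 had a positive change. In the 14 sows of R1, 14 members rose at L11 over G98 and 4 fell, where 21.1% of all genes rose and 21.9% fell. The median change was 0.11, 0.13 for the large and 0.09 for the small subunit members, against -0.01 for all genes. DESeq2 called 16 higher and 4 lower. No member had stages without overlap, where 0.424% of all genes were higher and 0.539% lower without overlap. RPL6 and RPL23A were higher at L11 in all 14 pairs.

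The largest rises in R1 were of RPL36A, RPS15A, RPL27, RPL23 and RPL23A. RPL36A (ENSSSCG00000039046, chrX:83018305-83022285) was at 465, 531 and 753 CPM at L11 and at 296, 365 and 504 CPM at G98, a log2 change of 0.52 (SE 0.07, edgeR adjusted p = 2.03e-05) with 13 of 14 pairs higher. RPS15A was at 1423, 1798 and 2271 CPM at L11 and at 949, 1210.4 and 1759 CPM at G98, a log2 change of 0.51 (SE 0.08, edgeR adjusted p = 0.000118). The log2 changes of RPL27 and RPL23 were 0.41 each, with SE 0.06 and 0.09, and that of RPL23A was 0.33 (SE 0.06). All 5 overlapped between the stages, and all 5 also rose in R2. Of the 14 members that rose in R1, 14 rose in R2, where 44 of 47 did.

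The 4 members that fell in R1 included RPL29, RPSA and RPLP0, and 0 members were called lower when plain library sizes replaced TMM, a scaling under which 10.2% of all genes were called lower. RPSA, the small subunit protein also described as a precursor of the laminin receptor (ENSSSCG00000037236, chr13:24072551-24081536), was at 768, 884 and 1069.7 CPM at L11 and at 848, 1031 and 1157 CPM at G98. It was higher at L11 in 2 of 14 pairs, with a log2 change of -0.20 (SE 0.05, edgeR adjusted p = 0.00294). RPLP0 was at 1570.5, 1844 and 2198 CPM at L11 and at 1651, 2035 and 2359.6 CPM at G98, and likewise higher in 2 of 14 pairs, with a log2 change of -0.16 (SE 0.05, edgeR adjusted p = 0.0191). RPL29 was at 731, 867 and 1027 CPM at L11 and at 814, 1006 and 1292 CPM at G98, a log2 change of -0.22 (SE 0.07, edgeR adjusted p = 0.0132). RPSA and RPLP0 fell in R1 and rose in R2. RPL11 and RPS16, at 0.13 (SE 0.07) and 0.09 (SE 0.08), were not called in R1, whereas RPL5 was, at 0.21 (SE 0.06).

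**Figure D2:**
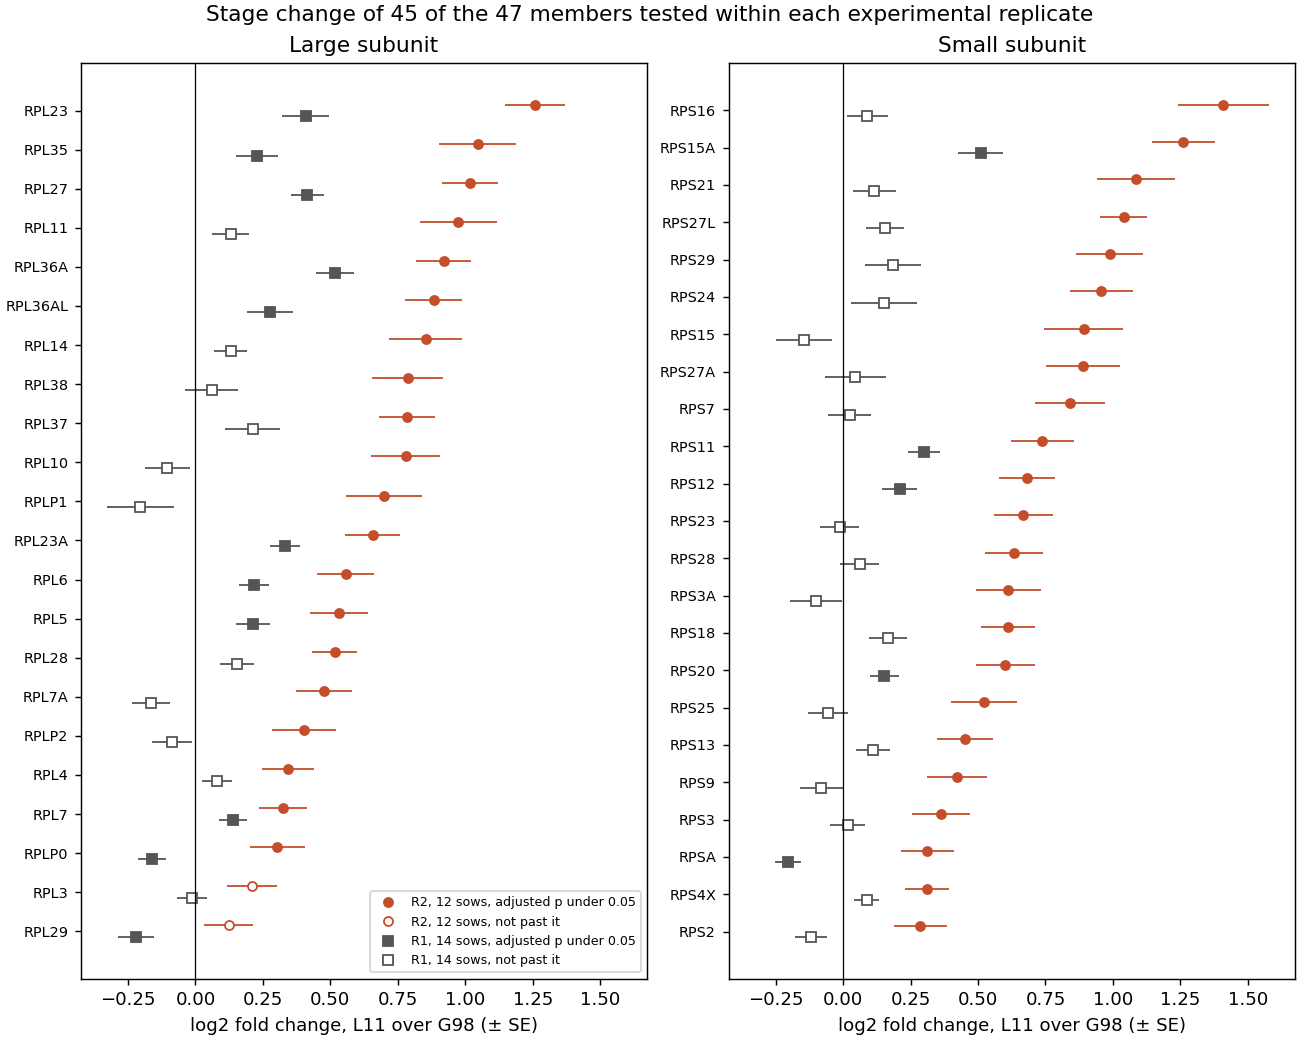
Log2 fold change of L11 over G98 with its standard error for 45 of the 47 members tested, large subunit on the left and small subunit on the right, ordered by the change in R2. Circles are R2 (12 sows) and squares R1 (14 sows), filled where the adjusted p is under 0.05; each circle lies right of the square of the same member.

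The stage change differed between the experimental replicates for most members. The difference, the change in R2 minus that in R1, was positive for 47 of 47 members and called for 39 (edgeR), where 10.8% of all genes were called with a larger and 9.38% with a smaller change in R2, 20.1% in all, and 0 members had a smaller one. With plain library sizes it was positive for 42 members and called for 21, where 3.38% of all genes were called with a larger change. The median was then 0.31 where all genes had -0.25. DESeq2 called 42 larger and 0 smaller. The median difference was 0.56 on the log2 scale, against 0.00 for all genes. The smallest p values belonged to RPS27L with a difference of 0.87 (SE 0.11, edgeR adjusted p = 1.01e-05), RPS16 with 1.3 (SE 0.18, 2.11e-05), RPL23 with 0.83 (SE 0.14, 0.000155), RPS21 with 0.95 (SE 0.16, 0.000186) and RPL10 with 0.87 (SE 0.15, 0.000219). RPLP0 differed by 0.45 (SE 0.11) and RPL11 by 0.83 (SE 0.15), both called, and RPL5 by 0.30 (SE 0.12), not called at an edgeR adjusted p of 0.0763.

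Over the 47 members the changes in R2 and R1, which come from different sows, had a Pearson r of 0.58 and a Spearman rho of 0.55, given as a description since the members share their libraries. RPL23, RPS15A, RPL27 and RPL36A were high in both, and RPL29 was low in both.

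Set within each stage, the experimental replicates differed at L11 much more than at G98. At L11, 47 of 47 members were higher in R2 than in R1 (edgeR and DESeq2 alike), where 22% of all genes were higher and 21.3% lower, with a median log2 difference of 0.56 and a range of 0.35 to 0.93. Without the R2 libraries of the sows sampled in both, 47 were higher with a median of 0.55. At this stage 10 members did not overlap between R2 and R1, where 2.37% of all genes were higher without overlap. At G98, 7 members were higher and 8 lower in R2, where 19.3% of all genes were higher and 21.3% lower, with a median of 0.02. The G98 libraries here and the L11 libraries above also enter the stage comparisons, so these are the same values seen from another side.

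RPS16 was at 1759, 2742 and 4599 CPM in R2 and at 1165, 1435 and 1706 CPM in R1 at L11, a log2 difference of 0.93 (SE 0.10, edgeR adjusted p = 3.93e-08). At G98 it was at 491, 1021 and 1391 CPM in R2 and at 993, 1246 and 1771 CPM in R1, a log2 difference of -0.47 (SE 0.12, edgeR adjusted p = 0.00309). So RPS16 stood higher in R2 than in R1 at L11 and lower at G98. RPS27L, at -0.57 (SE 0.08), and RPS15, at -0.43 (SE 0.13), were the other largest deficits of R2 at G98. RPL4 and RPL3, whose stage changes in R2 were 0.34 and 0.21, were the members most raised in R2 at G98, at 0.27 (SE 0.06) and 0.26 (SE 0.06). At L11 RPL11 and RPLP1 followed RPS16 in size, at 0.85 (SE 0.10) and 0.77 (SE 0.12), and RPSA, with the smallest p, was at 0.67 (SE 0.07). RPLP0 was at 0.60 (SE 0.08) and RPL5 at 0.38 (SE 0.07) there, both called, and neither was called at G98, at 0.09 (SE 0.06) and 0.04 (SE 0.08), nor was RPL11 there, at -0.04 (SE 0.09).

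**Figure D3:**
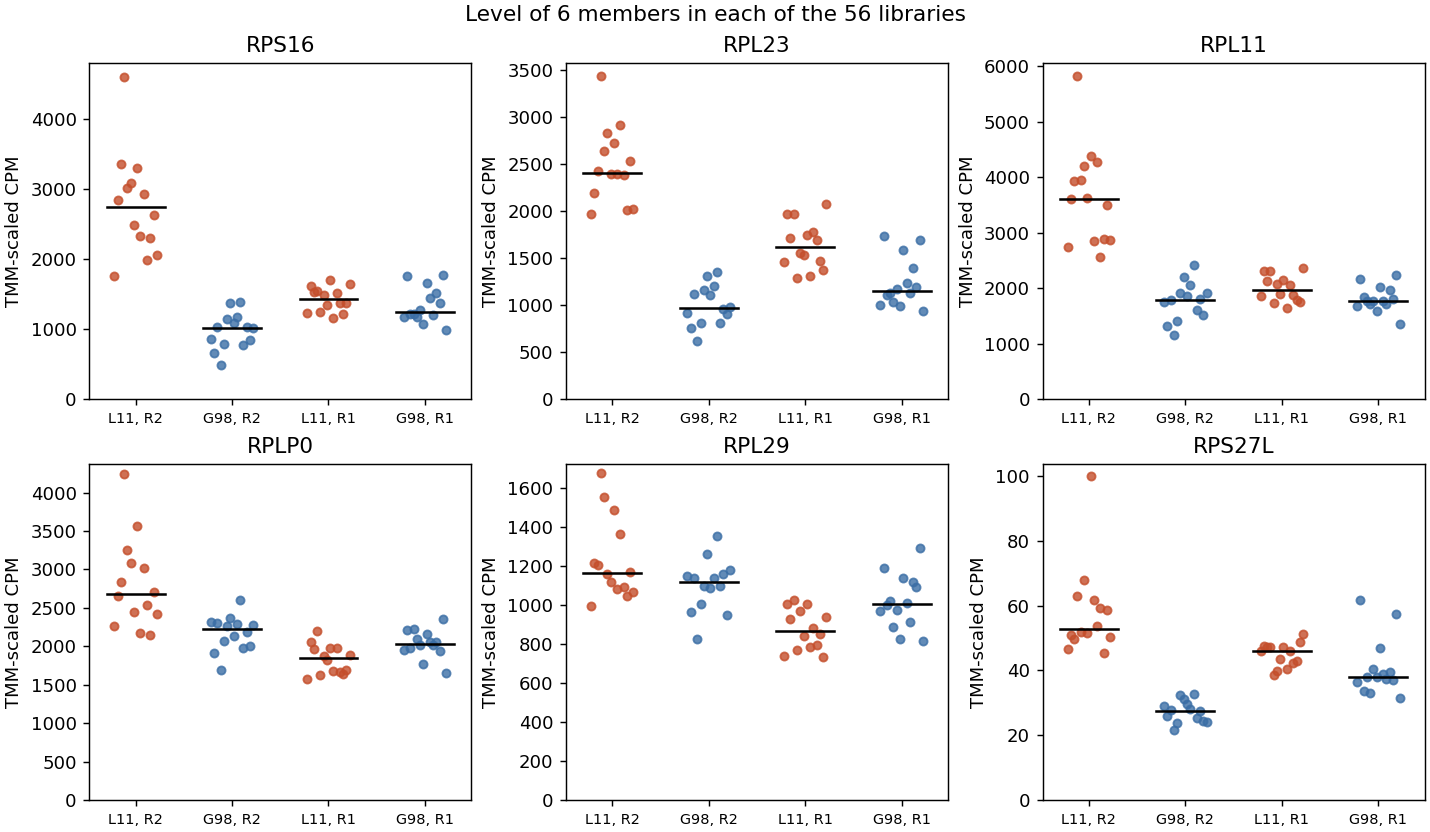
Level of RPS16, RPL23, RPL11, RPLP0, RPL29 and RPS27L in TMM-scaled CPM in each library, for L11 and G98 in R2 and R1 (points, 14 per group; lines are medians). For RPS16 the L11 libraries of R2 have the highest median, 2742 CPM, and their lowest, 1759 CPM, lies just under the highest G98 library of R1, 1771 CPM, while RPL29 has medians of 1166 CPM at L11 and 1119 CPM at G98 in R2.

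The members also varied between libraries of one group. The coefficient of variation had a median over members of 17.9% at L11 and 19.4% at G98 in R2, and of 13.3% at L11 and 13.1% at G98 in R1. RPS4X, the X-linked small subunit gene, was the steadiest in R1, at 7.36% at L11 and 8.14% at G98. RPLP1 was the most variable at L11 in R2, at 28.3%, and at G98 in R1, at 33.9%.

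Single sows differed in how far the members moved together. In R2 the median member changed by 0.08 to 1.4 on the log2 scale, and it rose in 12 of 12 sows. Sows T704 and T619, both conventional, LP and subordinate, had the highest medians, 1.4 and 1.26, and all 47 members were higher at L11 in each. Without T704 43 members rose in R2 and without T619 43. In R1 the median member changed by -0.43 to 0.65 and was positive in 10 of 14 sows. In sow T93220 3 members were higher at L11 and in sow T93287 all 47 were. Without T93220 23 members rose in R1 and 4 fell, and without T93287 13 rose and 7 fell.

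By housing, the R2 sows had medians of 0.08 to 0.61 in enriched pens (middle value 0.45, n = 6) and of 0.44 to 1.4 in conventional pens (0.82, n = 6), which overlap. A test of this difference across all genes, added after these values were seen, called 0 members and 0% of all genes (edgeR), with 44 of 47 members at an unadjusted p under 0.05, where 8.55% of all genes were lower at that p, a median difference of -0.48 and a smallest adjusted p of 0.21. The members share their libraries, so these counts over members are not independent observations of housing. Most of these conventional sows of R2 were subordinate and most enriched ones were not. The test held no term for rank, so housing and rank cannot be told apart there. In R1 the housing groups had medians of -0.43 to 0.65 in enriched pens (0.05, n = 7) and of -0.11 to 0.27 in conventional pens (0.06, n = 7). The same test in R1 called 0 members, where 0.547% of all genes were called in either direction, with 0 members at an unadjusted p under 0.05, where 16.3% of all genes were.

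**Figure D4:**
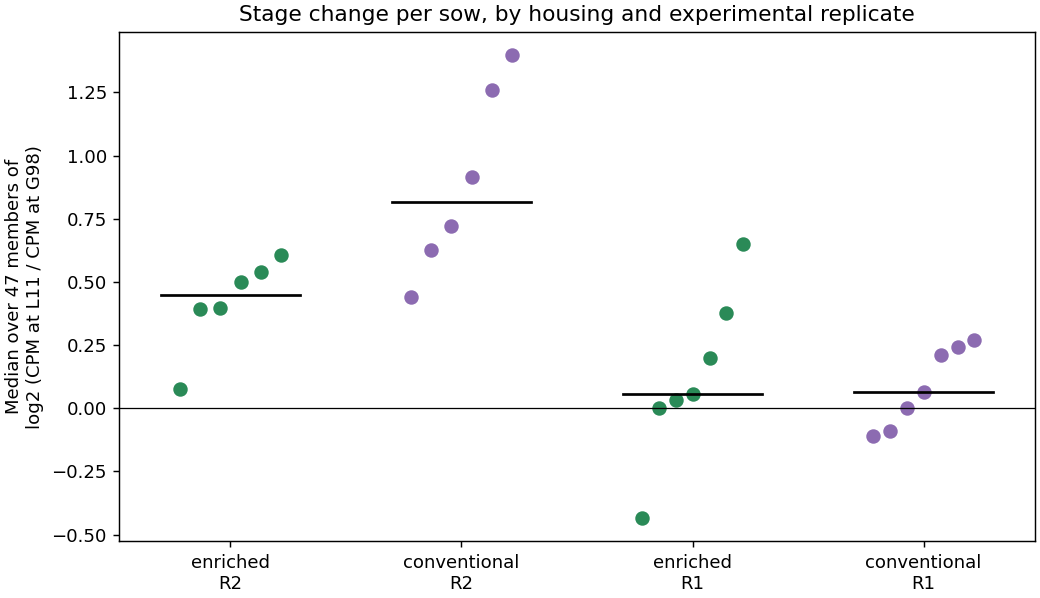
Median over the 47 members of the log2 ratio of CPM at L11 to CPM at G98 for each sow (points), by housing and experimental replicate, with the group median as a line. All 12 sows of R2 lie above 0, the highest at 1.4, while the sows of R1 lie between -0.43 and 0.65.

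Other genes of the translation machinery were counted in the same way. Of 63 mitochondrial ribosomal protein genes, whose products build the separate ribosome of mitochondria, 41 rose and 1 fell in R2 (median 0.35), and 27 rose and 6 fell in R1 (median 0.10). Of 15 other TOP genes of translation, 7 rose and 3 fell in R2, and 5 rose and 4 fell in R1. EEF1B2, a subunit of the elongation factor that reloads EEF1A, changed by 1.28 (SE 0.14) in R2, EIF3H, a subunit of the initiation factor eIF3, by 0.66 (SE 0.09), and TPT1 by 0.67 (SE 0.11). EEF2, the translocation factor, changed by -0.45 (SE 0.05) in R1, where TPT1 changed by 0.38 (SE 0.06).

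Among 18 initiation factors 9 rose and 2 fell in R2, and 6 rose and 4 fell in R1. EIF5B, which joins the subunits, rose in both, by 0.70 (SE 0.08) in R2 and 0.63 (SE 0.04) in R1. Of 31 ribosome biogenesis genes tested, 15 rose and 1 fell in R2, and 8 rose and 7 fell in R1. BRIX1, a large subunit assembly factor, rose by 0.89 (SE 0.11) in R2 and 0.43 (SE 0.06) in R1, and the helicase DDX21 changed by -0.59 (SE 0.07) in R1.

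Genes of RNA polymerase I transcription, mTOR and TOP regulators and ribosomal protein chaperones showed no common direction. Of 12 genes of RNA polymerase I transcription 5 rose and 2 fell in R2, and 5 rose and 2 fell in R1. POLR1A, the largest subunit of that polymerase, changed by -0.34 (SE 0.07) in R2 and -0.54 (SE 0.06) in R1, opposite in sign to the median member in both. Of 18 mTOR and TOP regulators 5 rose and 6 fell in R2, and 4 rose and 5 fell in R1. RHEB, the activator of mTORC1, rose by 0.69 (SE 0.08) in R2 and 0.33 (SE 0.07) in R1, and TIA1, a TOP-binding protein, changed by -0.57 (SE 0.09) in R2. LARP1 and MTOR changed by -0.34 (SE 0.05) and -0.36 (SE 0.05) in R1. Of 6 ribosomal protein chaperones, TSR2, the carrier of RPS26, rose and GRWD1, the carrier of RPL3, fell in both.

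Some cell type marker lists rose with the stage and others fell or changed little, and their part in the result was not tested. Summed T cell markers had medians of 2524 CPM at L11 and 2676 CPM at G98 in R2, and of 2495 and 2540 CPM in R1. Summed B cell markers had medians of 1138 CPM at L11 and 1223 CPM at G98 in R2, and of 976 and 941 CPM in R1. Of 10 plasma cell markers, 9 rose and 1 fell in R2 and 0 rose and 1 fell in R1, and 8 had a larger change in R2 than in R1. Their summed level was 718 to 1083 CPM at L11 and 514 to 732 CPM at G98 in R2, and 597 to 940 CPM at L11 and 537 to 1015 CPM at G98 in R1, and no marker had a median count of 0. JCHAIN, the joining chain of secreted immunoglobulin, changed by 1.02 (SE 0.16) in R2 and 0.22 (SE 0.13) in R1, the second not called. Of 9 naive T cell markers 0 rose and 6 fell in R2, and 0 rose and 8 fell in R1, with sums of 1977 to 2772 CPM at L11 and 2746 to 3333 CPM at G98 in R2, and 2149 to 2738 CPM at L11 and 2579 to 3768 CPM at G98 in R1. Granulocyte markers rose in both, 5 of the 5 tested, with MPO and ELANE at a median count of 0 in each group. Their summed level was 229.6 to 2796 CPM at L11 and 127 to 305 CPM at G98 in R2, and 264 to 573 CPM at L11 and 111 to 361 CPM at G98 in R1. Among 8 monocyte markers 4 rose and 0 fell in each, with sums of 2194 to 9652 CPM at L11 and 1439.95 to 2889.85 CPM at G98 in R2, and 1966 to 3029 CPM at L11 and 1246 to 3027 CPM at G98 in R1. Of 10 gene IDs of 9 cytotoxic and NK cell markers 5 rose and 1 fell in R2, and 6 rose and 1 fell in R1, with sums of 809.6 to 2275 CPM at L11 and 526.3 to 1396 CPM at G98 in R2, and 814 to 2360.4 CPM at L11 and 620.0 to 1209 CPM at G98 in R1. Of 7 platelet markers 0 rose and 1 fell in each, with sums of 469 to 2376 CPM at L11 and 886 to 2885 CPM at G98 in R2, and 323 to 1515 CPM at L11 and 103 to 2654 CPM at G98 in R1. The L11 library of R2 with 9652 CPM of monocyte markers, of sow T83888, also had the highest C1QA, a complement gene of macrophages, and without this sow 44 members rose in R2.

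Short genes as a whole also moved with the stage in R2. Other genes with a deposited length under 1000 bases had a median change of 0.36 in R2 and 0.06 in R1, those of 1000 to 2000 bases 0.18 and 0.05, those of 2000 to 4000 bases 0.01 and 0.01, and those over 4000 bases -0.12 and -0.06. The members in the same classes were at 0.84, 0.57, 0.63 and 0.56 in R2, and the last class holds 3 members. Among the members themselves the change in R2 had a Spearman rho of -0.23 with length, and that in R1 of 0.06, given as descriptions over 47 genes.

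In fits of R2 and R1 together, housing, parity and rank had no called member at either stage. At L11, edgeR called 0 of 47 members for housing, parity and rank, where 0%, 0.179% and 0% of all genes were called in either direction (for parity 0.0163% higher and 0.163% lower), with 0 members at an unadjusted p under 0.05 in each, where 5.98%, 7.64% and 9.44% of all genes were, and DESeq2 called 0 as well. At G98, edgeR called 0 of 47 for housing, parity and rank, where 0.00815%, 1.47% and 0% of all genes were called (for parity 0.562% higher and 0.904% lower), with 3, 2 and 1 members at an unadjusted p under 0.05, where 5.24%, 16.8% and 14.4% of all genes were, and DESeq2 called 0. At L11 the sows with a library in both R2 and R1 enter the fits as if separate, so the 14 HP libraries come from 12 sows. Without their R2 libraries 0 members were called, and the median member was at -0.10 for housing, 0.02 for parity and -0.12 for rank, against -0.11, 0.09 and -0.01 with them. The smallest p at G98 for housing was that of RPS2, at 1772, 2322 and 2878 CPM in enriched and at 1686, 2059 and 2418 CPM in conventional sows, a log2 difference of 0.18 (SE 0.07, edgeR adjusted p = 0.883). For parity it was RPS13, at 0.20 (SE 0.09, edgeR adjusted p = 0.254), with 487, 592 and 832 CPM in HP and 364, 547 and 682 CPM in LP sows. For rank it was RPS9, at -0.31 (SE 0.14, edgeR adjusted p = 0.306), with 966, 1136 and 1758 CPM in dominant and 899, 1389 and 1822 CPM in subordinate sows. All 3 overlapped between groups. The next smallest p at G98 belonged to RPLP1, at 0.30 (SE 0.13), and RPL37, at 0.21 (SE 0.10), for housing, to RPL6, at 0.17 (SE 0.08), and RPS12, at 0.15 (SE 0.08), for parity, and to RPS2, at -0.16 (SE 0.09), and RPL29, at -0.15 (SE 0.10), for rank. At L11 the smallest belonged to RPLP1, at -0.25 (SE 0.19), RPL6, at -0.15 (SE 0.11), and RPS23, at -0.17 (SE 0.15), for housing. They were RPS27L, at 0.15 (SE 0.11), RPL38, at 0.17 (SE 0.15), and RPL36AL, at 0.14 (SE 0.14), for parity, and RPS27L, at 0.17 (SE 0.14), RPS9, at -0.17 (SE 0.20), and RPS21, at 0.13 (SE 0.18), for rank.

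RPLP0, RPL5 and RPL11 were not called either. For housing, RPL11 was at -0.18 (SE 0.19) at L11 and at 0.12 (SE 0.09) at G98, RPL5 at -0.10 (SE 0.10) and 0.01 (SE 0.09), and RPLP0 at -0.14 (SE 0.14) and 0.10 (SE 0.06). For parity, HP minus LP, RPL11 was at 0.07 (SE 0.19) at L11 and 0.13 (SE 0.09) at G98, RPL5 at 0.06 (SE 0.10) and 0.15 (SE 0.09), and RPLP0 at 0.08 (SE 0.14) and 0.03 (SE 0.06). For rank, dominant minus subordinate, RPL11 was at -0.09 (SE 0.24) at L11 and 0.01 (SE 0.12) at G98, RPL5 at 0.00 (SE 0.13) and 0.03 (SE 0.12), and RPLP0 at 0.00 (SE 0.18) and -0.06 (SE 0.08). Each of these is smaller than 2 of its standard errors.

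Within the experimental replicates the members leaned in opposite directions for some factors. For housing at L11 the median member was at -0.29 in R2 and 0.13 in R1, all 47 members negative in R2 and all 47 positive in R1, against -0.11 in both together. The members share their libraries, so counts over members, here and for parity and rank below, are not independent observations of a factor. In R2 35 members had an unadjusted p under 0.05 there, where 8.01% of all genes were lower at that p, and 0 members and 0% of all genes were called. A test of the difference between R2 and R1, added after these values were seen, called 0 members and 0.229% of all genes (edgeR), with 37 members at an unadjusted p under 0.05, where 10.8% of all genes were lower at that p, a median of -0.40 and a smallest adjusted p of 0.0606. Most conventional L11 libraries of R2 were of subordinate sows and most enriched ones were not. These fits held no term for rank, so housing and rank cannot be told apart in R2. At G98 the housing medians were 0.11 in R2 and 0.11 in R1, and 0.12 in both together, which plain library sizes brought to 0.00.

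For parity at G98 the median member was at 0.30 in R2 and -0.08 in R1, against 0.10 in both together. Within R2 alone 4 members were called higher in HP than in LP sows, RPL6, RPL7, RPL38 and RPS13, where 2.61% of all genes were called higher and 3.96% lower, and 31 members had an unadjusted p under 0.05, where 11.4% of all genes were higher at that p. The added test of the difference between R2 and R1 called 0 members and 0.188% of all genes (edgeR), 0.118% higher and 0.0707% lower, with 30 members at an unadjusted p under 0.05, where 9.82% of all genes were higher at that p, and a smallest adjusted p of 0.0746. At L11 the parity medians were 0.13 in R2 and 0.04 in R1. For rank at G98 the medians were 0.23 in R2 and -0.23 in R1, with 0 members and 0% of all genes called in the added test (edgeR) and 14 members at an unadjusted p under 0.05, where 7.63% of all genes were. For rank at L11 the medians were 0.12 in R2 and 0.11 in R1, but -0.01 in both together, a fit with no term for the experimental replicate, and 0.09 with that term. Dominant and subordinate libraries are unevenly spread there, 5 and 5 in R2 and 6 and 3 in R1, so the direction of the pooled L11 rank values depends on that term.

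**Figure D5:**
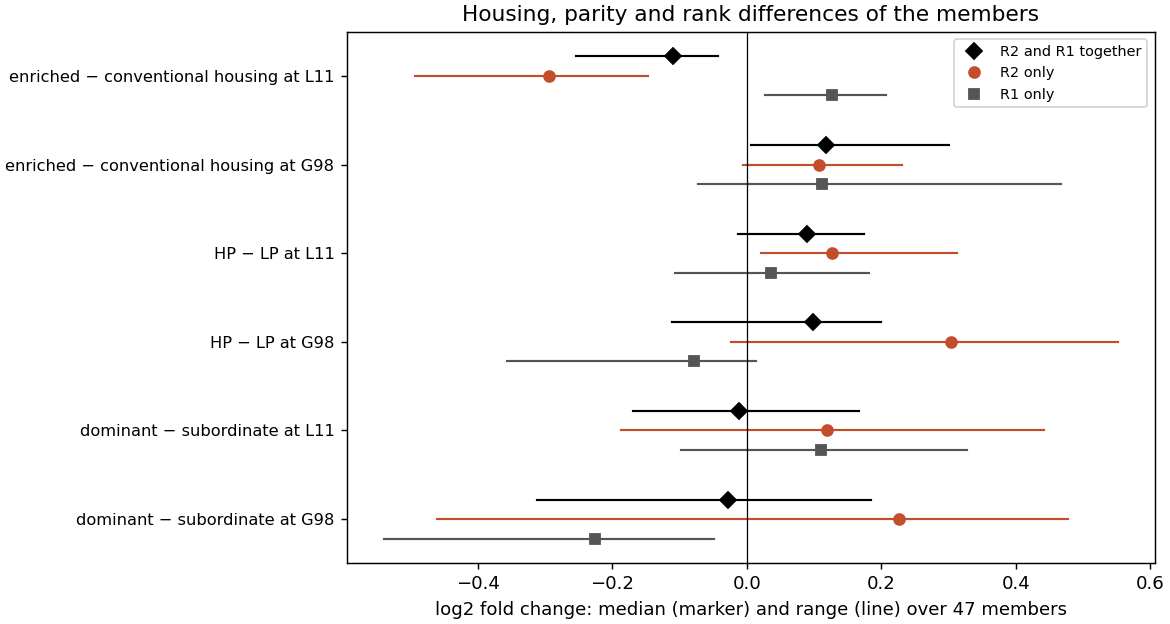
Log2 differences of the 47 members for housing, parity and rank at L11 and G98: markers are the median and lines the lowest to highest member, for R2 and R1 together (diamonds), R2 alone (circles) and R1 alone (squares). For housing at L11 the R2 line runs from -0.49 to -0.15 and the R1 line from 0.03 to 0.21.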

How the data were processed

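Per the labels' protocols, RNA of blood mononuclear cells was made into QIAseq Stranded mRNA libraries. The submitters' processing notes list the build Sscrofa11.1 together with DESeq2 and R 4.1.2; no source used here names the quantifier. Each deposited file holds, per the file headers, the authors' estimated count (not normalised) and TPM of every gene. Estimated counts were rounded (4.61% were not whole). TPM was used only to compare levels between genes.

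Symbols came from a gene name table (14692 of 24358 IDs). Coordinates are RefSeq gene spans of Sscrofa11.1 matched by symbol, which do not separate exons from untranslated regions. No sequences were used.

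Each comparison was fitted on all genes with edgeR 4.0.16 in R 4.3.3 (TMM, filterByExpr on the tested factor, quasi-likelihood test, 2-sided), with Benjamini-Hochberg adjustment over all genes tested and a threshold of 0.05. SE is the log2 change divided by the square root of F. Stage fits held one term for each sow within its experimental replicate, housing fits held parity as well, and those of parity or rank held housing. The 26 pairs come from the ear tags in the labels, which give the same animal at both stages, and for housing, parity and rank the experimental replicate, named in the design text, was a block only in an alternative. Alternatives were DESeq2 1.42.0, its size factors, plain library sizes, other filters, red cell genes removed, all 3 factors, R2 or R1 alone, single libraries left out and, chosen after the data were seen, the tests of differences named in the text. Some of the fits were also run on counts simulated with a fixed dispersion and no sow effect. Those counts lack the pairing and the shared movement of the members, so they do not test the fits under these conditions.

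Members with values were the 5 highest and 5 lowest in TPM, the 5 largest called changes each way per stage fit, the 5 smallest p of the difference, copies and their parents, the 3 largest differences each way between R2 and R1, the 3 smallest p for housing, parity and rank, and RPLP0, RPL5 and RPL11 throughout. Other members are examples, and 2 members are not reported here by name, though all counts and medians include them. The members and gene lists were chosen with earlier results of these data known. No 2 libraries were counted as 1, since the chi-square per degree of freedom of 27 pairs within groups was 19.3 to 333.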

Additional observations from a re-analysis of the deposited data

Results flagged for a closer look

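The stage change differed between the experimental replicates in a test of that difference, with sow terms and edgeR over all genes. It was called for 39 members of 47, all larger in R2, where 10.8% of all genes were called with a larger change. Among the members described, the change in R2 minus that in R1 was 1.3 for RPS16, 0.95 for RPS21, 0.87 for RPS27L, 0.87 for RPL10, 0.83 for RPL23, 0.83 for RPL11 and 0.45 for RPLP0, on the log2 scale. In groups of 4 to 10 libraries, of which 24 were examined, no library stood far enough from the others to be singled out by that check. Single marker lists could still differ, as in the L11 library of R2 with 9652 CPM of monocyte markers, against a median of 2728 CPM.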

How the results depend on the processing

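With plain library sizes in place of TMM, 38 members rose and 0 fell in R2, where 14.7% of all genes rose and 38.8% fell. In R1 23 rose and 0 fell, where 29.2% of all genes rose and 10.2% fell. A larger change in R2 was called for 21, where 3.38% of all genes had one. At G98 11 of 47 were higher in R2 than in R1, near the 22.5% of all genes that were higher. The cause of these shifts was not tested. That scaling moves the median of all genes to -0.16 in R2, 0.09 in R1, -0.25 for the difference, -0.17 for R2 minus R1 at L11 and -0.12 for housing at G98. It moves the share of higher genes among the called to 27.5% in R2 (51.5% with TMM), 74.0% in R1 (49.1%), 9.0% for the difference (53.4%), 63.4% for R2 minus R1 at G98 (47.5%) and 21.2% at L11 (50.8%). In R2 alone, with TMM, 4 members were called higher in HP at G98, where 2.61% of all genes were called higher and 3.96% lower. Leaving out each sow in turn gave 43 to 44 rises and 0 falls in R2 with a median of 0.59 to 0.69, and 12 to 23 rises and 4 to 7 falls in R1 with a median of 0.06 to 0.15. Without the pairing by sow, that is with no replicate block, 44 members rose in R2, and 13 rose and 4 fell in R1. With the experimental replicate as a replicate block, 0 members were called for housing, parity or rank, with medians of -0.07 for housing, 0.08 for parity and 0.09 for rank at L11, and 0.12, 0.10 and -0.03 at G98. Of the other member counts under these alternatives, 285 stayed within 1.5 times the reported one. Single members described lost their call 6 times and gained one 6 times, against 968 times with no change of call.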
